A study of Mus musculus with 4 samples.

Results

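The cells described here came from the newborn mouse hypothalamus and carried the transcripts of a neuronal gene and of Tbx3, a T-box transcription factor. They were chosen in run 2 of the P0 sample by unique molecular identifiers (UMIs), each of which stands for 1 captured RNA molecule: at least 2 UMIs of Tbx3, at least 2 UMIs of Stmn2, which encodes the neuronal microtubule protein stathmin-2, and at most 9 UMIs each of the peptide genes Pomc, Ghrh and Sst. The rule took 832 of the 9628 cells of that run and of the 43261 cells of the series, and these are called Tbx3 neurons below. They made up 8.64% of the run and 10.5% of its cells with at least 2 Stmn2 UMIs. The cells set against them were the 6533 cells of the run with at least 2 Stmn2 UMIs and no Tbx3 UMI, called Tbx3-zero neurons.

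The animals were C57BL/6J mice carrying the Rax-CreERT2 driver and the Ai14 reporter. In this line a tamoxifen-inducible Cre is made where Rax is active, and recombined cells and their descendants make tdTomato. Tamoxifen was given at embryonic day 9 in the design text and 9.5 in a protocol, and live tdTomato-positive cells were sorted from dissected hypothalamus. The samples were titled E11, E14, P0 and P7, with ages of E11.5, E14.5, P0 and P7.5 in other labels, and there was 1 sample for each age. All 4 samples share genotype, strain and treatment, the label reaches the lineages that had Rax active near the time of the dose, and the number of animals pooled is not given in the sources used here. What separated runs 1 and 2 of an age is not given there either. With 1 sample for each age, no p-value or standard error was computed, and intervals are at the 95% level, exact Poisson for summed UMIs and Clopper-Pearson for shares of cells, which cover counting error only.

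Tbx3 is used early in the ventral midline of the hypothalamus and later in the arcuate nucleus, where neurons that sense hormones and control feeding, growth and reproduction lie next to the ventricle wall. Arcuate neurons of this kind are known by their peptides: Pomc neurons lower food intake, neurons with Agrp and Npy raise it, and neurons with Kiss1 and Tac2 drive the release of gonadotropins. Histamine neurons, which make histamine through the enzyme encoded by Hdc, lie further back in the tuberomammillary region.

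The 4 markers named for the group were Tbx3, Zim1, Negr1 and Unc5d. Tbx3 was used by the rule, and its count ran from 2 to 15 UMIs per cell with a median of 3, with exactly 2 UMIs in 268 cells. Zim1, a zinc-finger gene expressed from 1 parental copy, stood at 57.9 UMIs per 1000000 (CPM) in the Tbx3 neurons and 29.5 CPM in the Tbx3-zero neurons, a ratio of 1.83 after 5 CPM were added to each level. Unc5d, a netrin receptor family gene, stood at 103 against 48.1 CPM, a ratio of 2.04. Negr1, a neuronal cell adhesion gene, stood at 296 against 268 CPM, a ratio of 1.10, so it marked the Tbx3 neurons little more than other neurons. Zim1 had no UMI in 483 of the 832 cells and a highest count of 6, and Unc5d had none in 445 cells and a highest count of 14. Negr1 ran from 0 to 18 UMIs with a median of 3. In the 30 Tbx3 neurons left out for over 9 Pomc UMIs, Zim1 stood at 75.9, Unc5d at 124 and Negr1 at 375 CPM. These markers were therefore not particular to the group among neurons with Tbx3. In the 6 left out for over 9 Sst UMIs, Unc5d stood at 142 CPM, Zim1 at 22.5 and Negr1 at 255 CPM.

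Genes that define other arcuate types gave a mixed picture, and the cells are therefore called by their rule here and not by a cell type. The word neuron stands for the Stmn2 threshold, which some cells with tanycyte genes also passed. The transcription factor genes Isl1 and Nkx2-1, both active in arcuate neurons, had a UMI in 64.1% and 77.4% of the Tbx3 neurons, against 30.9% and 45.9% of the Tbx3-zero neurons and 7.44% and 21.4% of 309 oligodendrocyte precursor cells, which should lack Isl1 (no Stmn2 UMI and at least 3 UMIs of Pdgfra, Olig1 and Olig2; median depth 9020 UMIs, against 10055.5 in the Tbx3 neurons and 10534 in the Tbx3-zero neurons). With each cell thinned to 2000 UMIs the Isl1 shares were 37.7%, 16.5% and 1.94%, and those of Nkx2-1 31.7%, 20.7% and 7.44%. Agrp had at least 2 UMIs in 23 Tbx3 neurons (2.76%), Tac2 in 20 (2.40%) and Hdc in 46 (5.53%). The shares of the Tbx3-zero neurons were 0.107%, 0.398% and 0.520%. Kiss1 had 0 UMIs in the 832 cells, an interval of 0 to 0.442% for the share of cells with a UMI. It had 0 in the 6533 Tbx3-zero neurons too. The leptin receptor gene Lepr had a UMI in 1 Tbx3 neuron and in 11 Tbx3-zero neurons (0.168%), so neither gene set the groups apart. tdTomato had a UMI in 97.8% of the Tbx3 neurons, with a median of 5.

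The thresholds cut through continuous counts. Cells with exactly 2 Tbx3 UMIs held 331 CPM of Isl1 and 207 CPM of Cited1, and the 545 neurons with 1 Tbx3 UMI, just outside, held 248 and 129 CPM. The 50 cells with exactly 2 Stmn2 UMIs held 305 CPM of Rax, and the 47 Tbx3 cells with 1 Stmn2 UMI, just outside, held 401 CPM. The ceilings on peptides left out 30 Tbx3 neurons with over 9 Pomc UMIs, 6 with over 9 Sst UMIs and 0 with over 9 Ghrh UMIs. Among the 10 Tbx3 neurons with 5 to 9 Pomc UMIs Isl1 stood at 219 CPM, and among the 9 with 10 to 19 at 358 CPM.

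The Tbx3 neurons had 9448638 UMIs in all, with a median of 10055.5 per cell, and the Tbx3-zero neurons a median of 10534. Their marker content differed in several lists of other cell types. The radial glia list summed to 1687 CPM in the Tbx3 neurons and 4387 CPM in the Tbx3-zero neurons, with 1 of 9 genes higher in the former. The oligodendrocyte precursor list summed to 39.9 against 215 CPM, with 0 of 6 genes higher, and the astrocyte list to 38.2 against 159 CPM, with 0 of 6 higher. The tanycyte list, for the radial cells that line the third ventricle, went the other way, at 147 against 69.5 CPM with 8 of 8 genes higher. These counts took any ratio above 1 with no minimum level, and the median ratio over all tested genes was 1.02. Of the 8 tanycyte genes, 2 lay under 5 CPM in the Tbx3 neurons. At least 3 UMIs of the list were found in 13.6% of the Tbx3 neurons and 8.40% of the Tbx3-zero neurons. For the radial glia list these shares were 84.5% and 79.2%, opposite in order to the summed levels. In the 50 Tbx3 neurons with exactly 2 Stmn2 UMIs the tanycyte list summed to 1020 CPM. Microglia genes summed to 1.59 CPM and endothelial and mural genes to 8.36 CPM in the Tbx3 neurons. UMIs of both Xist and a Y-linked gene were found in 75 Tbx3 neurons, or 9.01%, whose median depth was 16350 UMIs, and in 5.97% of the Tbx3-zero neurons. Their part in the results was not tested beyond the split by sex below, which leaves them out, and no doublet caller was run. Of cell barcodes, 1 was shared by runs 1 and 2 of P0, and 1 barcode of a Tbx3 neuron recurred at E14 run 2 and 1 at P7.

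Between the Tbx3 neurons and the Tbx3-zero neurons, 35 genes were at least 2-fold higher and 174 at least 2-fold lower, of 7473 genes with at least 20 CPM in the higher group, or 0.468% and 2.33%. Because the cells were split on Tbx3, these values describe the split and were not tested. The 15 genes with the highest ratios held peptides of feeding neurons (Agrp and Npy), histamine genes (Hdc and Slc18a2), transcription factors (Cited1, a transcription cofactor, and Barhl2, Lef1, Bsx and Rax), imprinted growth genes (Dlk1 and Cdkn1c), the insulin receptor substrate gene Irs4, the proteoglycan gene Gpc4, the methionine sulfoxide reductase gene Msrb2, and Tbx3os1.

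Peptide and amine genes were high in few cells. Agrp, the melanocortin antagonist made by feeding-promoting neurons, stood at 129.5 CPM (122 to 137) in the Tbx3 neurons and 3.52 CPM in the Tbx3-zero neurons, a ratio of 15.8. It had a UMI in 53 cells and up to 143 in a single cell, and 10 cells held 74.4% of its UMIs. Npy, which encodes the co-released neuropeptide Y, stood at 251 CPM (241 to 261) against 44.7 CPM, a ratio of 5.15, with up to 252 UMIs in a cell and 79.5% of its UMIs in 10 cells. The levels of Agrp and Npy in the whole group were therefore set by a small part of it, and the share of cells with an Npy UMI was 10.2% in the Tbx3 neurons and 11.4% in the Tbx3-zero neurons. Hdc, histidine decarboxylase, stood at 59.2 CPM (54.4 to 64.3) against 3.40 CPM, a ratio of 7.64, with 50.6% of its UMIs in 10 cells. Leaving out cells with 3 or more non-neuronal marker UMIs kept 123 Tbx3 neurons and 1278 Tbx3-zero neurons. The ratios were then 9.11 for Agrp, 2.97 for Npy and 17.1 for Hdc. After thinning, 3.25% of those 123 cells had an Agrp UMI, 2.44% an Npy UMI and 10.6% an Hdc UMI. These 3 ratios therefore rest on few cells. Across all alternatives, this exclusion included, the ratio of Agrp ran from 6.36 to 28.9 and that of Hdc from 3.38 to 17.1. Slc18a2, the vesicular transporter that loads histamine and other monoamines, stood at 43.8 against 13.7 CPM, a ratio of 2.61. Its lowest ratio across the alternatives was 1.89, and 10 cells held 40.3% of its UMIs.

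The transcription regulators were spread over more cells. Cited1 stood at 268 CPM (258 to 279) against 31.7 CPM, a ratio of 7.44, and had a UMI in 49.0% of the Tbx3 neurons and 17.4% of the Tbx3-zero neurons, with 0 as its median and 58 as its highest count. Bsx, a homeobox gene needed for normal Agrp and Npy expression, stood at 59.6 against 11.08 CPM, a ratio of 4.02, with a UMI in 33.8% of the cells. Lef1, the nuclear partner of beta-catenin in Wnt signalling, stood at 85.6 against 14.9 CPM, a ratio of 4.55, with a UMI in 39.3%. Barhl2, a homeobox gene of the developing diencephalon, stood at 45.3 against 4.11 CPM, a ratio of 5.52, with a UMI in 16.7%. With 20 CPM added in place of 5 the ratios of Bsx, Lef1 and Barhl2 were 2.56, 3.02 and 2.71. Rax, the retina and anterior neural fold homeobox gene that drives the Cre of this line, stood at 54.1 against 14.48 CPM, a ratio of 3.03. Without cells holding 3 or more non-neuronal marker UMIs it was 1.60. Rax is itself in the tanycyte list used there, so cells with 3 or more Rax UMIs were removed by their own Rax count. Tbx3os1 stood at 26.0 against 0.643 CPM and had a UMI in 23.3% of the Tbx3 neurons. It lies at chromosome 5, 119611253 to 119671508, and reaches into the start of Tbx3 at 119670534 to 119684724 (GRCm38.p6). How reads in the stretch they share were assigned is not given in the sources used here and was not tested.

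Among the 15, Dlk1 and Cdkn1c had a UMI in the most Tbx3 neurons, 73.2% and 78.5%, against 47.5% and 53.7% of the Tbx3-zero neurons. Dlk1, a Notch ligand-like gene, stood at 700.2 CPM (683 to 717) against 203 CPM, a ratio of 3.39, and ran from 0 to 50 UMIs per cell with a median of 5. Cdkn1c, a brake on cell division, stood at 525 against 183 CPM, a ratio of 2.81, with a median of 2 and a highest count of 118. That ratio was below 2 without cells holding 3 or more UMIs of a non-neuronal marker list (1.88) or 10 or more (1.82), and with at least 10 Stmn2 UMIs (1.79). Irs4 stood at 80.5 against 25.1 CPM, a ratio of 2.84, with a UMI in 38.5% of the Tbx3 neurons and 15.2% of the Tbx3-zero neurons.

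Promoters of the 15 highest genes were searched for letters that T-box factors are known to bind, since Tbx3 chose the cells. The sequences were those of RefSeq on GRCm38.p6, from 250 bases before to 50 after each gene's start, and 12 of the 15 genes had one. The T-box element AGGTGTGA, on either strand, was in 0 of the 12 and in 1.47% of 26994 promoters. Its core GGTGTG, which the longer element contains, was in 5 of the 12 (Lef1, Npy, Dlk1, Slc18a2 and Irs4), or 41.7%, on either strand, and in 21.4% of all promoters and 19.6% of those of tested genes. Of the 35 genes at least 2-fold higher, 26 had a promoter and 10 the core (38.5%), and of the 174 lower genes 129 had one and 27 the core (20.9%). The 250 bases before the start are shown for Npy, at chr6:49822460-49822709, and Dlk1, at chr12:109452573-109452822, both on the plus strand, because Npy was high in few Tbx3 neurons and Dlk1 in most. Capitals mark the core, which begins 161 bases before the start used for Npy and 208 before that used for Dlk1. The whole Dlk1 gene spans chr12:109452485 to 109463336, so the Dlk1 stretch shown lies inside it and the start used is not the first. A match describes these letters and shows no binding.
Npy: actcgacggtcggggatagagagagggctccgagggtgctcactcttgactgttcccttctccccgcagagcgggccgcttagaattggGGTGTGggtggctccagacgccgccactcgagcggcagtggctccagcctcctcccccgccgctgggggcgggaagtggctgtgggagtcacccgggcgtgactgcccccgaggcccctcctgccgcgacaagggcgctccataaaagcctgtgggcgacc
Dlk1: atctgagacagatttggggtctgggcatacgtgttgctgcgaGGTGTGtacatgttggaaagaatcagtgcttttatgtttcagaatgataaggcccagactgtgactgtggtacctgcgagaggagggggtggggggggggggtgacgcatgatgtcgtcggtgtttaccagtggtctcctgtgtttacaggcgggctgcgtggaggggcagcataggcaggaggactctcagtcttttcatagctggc

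**Figure D1:**
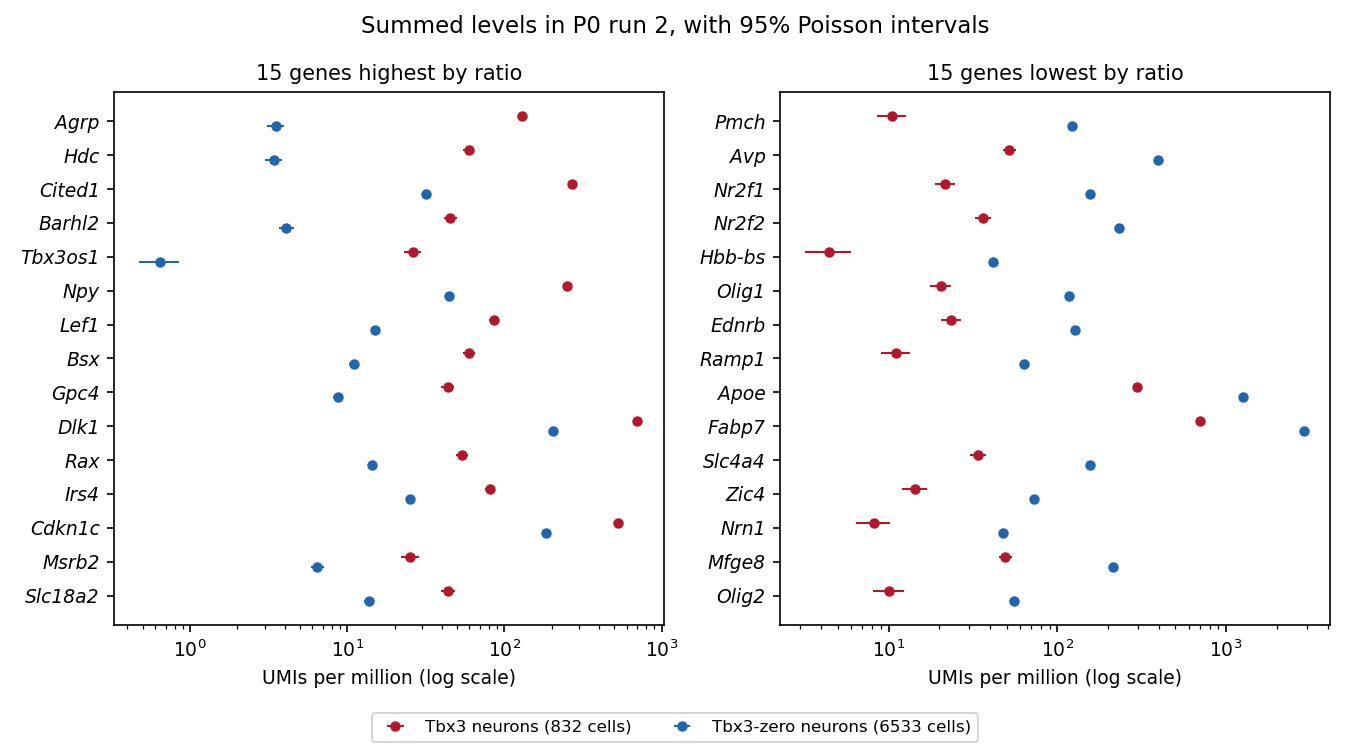
Summed level of each gene in CPM on a log axis, in 832 Tbx3 neurons (red) and 6533 Tbx3-zero neurons (blue) of P0 run 2, with 95% Poisson intervals. The left panel shows the 15 highest ratios, led by Agrp at 129.5 against 3.52 CPM, and the right panel the 15 lowest, led by Pmch at 10.5 against 122 CPM.

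The 15 genes with the lowest ratios were 6 neuronal genes, 8 glial genes and a hemoglobin gene. The neuronal ones were Pmch and Avp, the peptides of lateral hypothalamic and of magnocellular neurons, the orphan nuclear receptor genes Nr2f1 and Nr2f2, the zinc-finger gene Zic4, and Nrn1, a neurite growth gene. Pmch stood at 10.5 CPM in the Tbx3 neurons and 122 CPM in the Tbx3-zero neurons, a ratio of 0.122 that came to 1.27 when 1 Tbx3 UMI was enough, and Avp at 52.0 against 394 CPM, a ratio of 0.143. A Pmch UMI was found in 8.65% of the Tbx3 neurons, 9.44% of the Tbx3-zero neurons and 6.80% of the oligodendrocyte precursor cells. At least 2 were found in 79 of the Tbx3-zero neurons (1.21%) and 3 of the Tbx3 neurons. Nr2f2 stood at 36.3 against 234 CPM, a ratio of 0.173, with a UMI in 16.3% against 56.2% of cells, and Nr2f1 at 21.6 against 156 CPM, a ratio of 0.165. Zic4 and Nrn1 had ratios of 0.248 and 0.249. These 6 genes stayed at least 2-fold lower when both groups were limited to cells with at least 10 Stmn2 UMIs.

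The other 9 came close to 1 under that limit. Olig1, Olig2, Ednrb, Ramp1, Apoe, Fabp7, Slc4a4 and Mfge8, genes at home in glia and their progenitors, and the hemoglobin gene Hbb-bs had ratios from 0.203 (Hbb-bs) to 0.250 (Olig2) over all cells, and from 0.694 (Ramp1) to 1.07 (Hbb-bs) with at least 10 Stmn2 UMIs. Hbb-bs had at least 2 UMIs in only 15 Tbx3-zero neurons (0.230%) and 2 Tbx3 neurons (0.240%). At least 10 UMIs of the erythroid list were found in 0.0153% of the Tbx3-zero neurons, so the Hbb-bs ratio rests on few cells. Apoe stood at 295 against 1263 CPM and Fabp7 at 700.1 against 2917 CPM, beside the glial list sums above. Beyond this limit on Stmn2 and the marker exclusions of the closing section, the part of glial cells or glial RNA was not tested. The share of cells with an Avp UMI did not follow the level: it was 42.8% of the Tbx3 neurons, 39.9% of the Tbx3-zero neurons and 40.1% of the oligodendrocyte precursor cells, and 10.9%, 11.3% and 13.9% after thinning. Of 85 neurons of the run with at least 10 Avp UMIs, 1 had at least 2 Tbx3 UMIs.

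The same genes were read in other cells that met the thresholds and were used neither to choose the group nor to rank its genes. Run 1 of P0 held 24 such cells, E14 run 2 held 234, P7 held 392 and E11 run 2 held 59. Each was compared with the Tbx3-zero neurons of its own run. Of the 15 genes, 14 reached 20 CPM in either group in P0 run 1, 10 in E14 run 2, 10 at P7 and 7 in E11 run 2, and only these were counted. In P0 run 1, 12 of the 14 were again at least 2-fold higher, beside 9.66% of all tested genes, and in E14 run 2 7 of the 10, beside 0.9%. At P7, 8 of 10 were at least 2-fold higher, beside 0.827%, and in E11 run 2 3 of 7 (Tbx3os1, Dlk1 and Rax), beside 3.61%. The median ratio of the genes counted was 3.71, 2.89, 3.26 and 1.43 in these runs, where the median over all tested genes was 1.08, 1.03, 0.989 and 1.01. Over all 15 genes, whatever their level, the medians were 3.71, 2.48, 2.63 and 1.06, so that of E11 run 2 lay near 1. Of the low genes that reached 20 CPM, 9 of 15 were at least 2-fold lower in P0 run 1, 6 of 7 at E14 and 13 of 13 at P7, beside 6.81%, 1.02% and 5.3% of all tested genes, and 4 of 5 in E11 run 2, beside 2.36%. Whatever their level, 14, 13, 15 and 10 of the 15 low genes had a ratio below 1 in these runs. In E11 run 2 the median ratio was 0.757 over all 15 and 0.216 over the 5 counted. Ratios given below for single genes include some under 20 CPM in both groups.

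**Figure D2:**
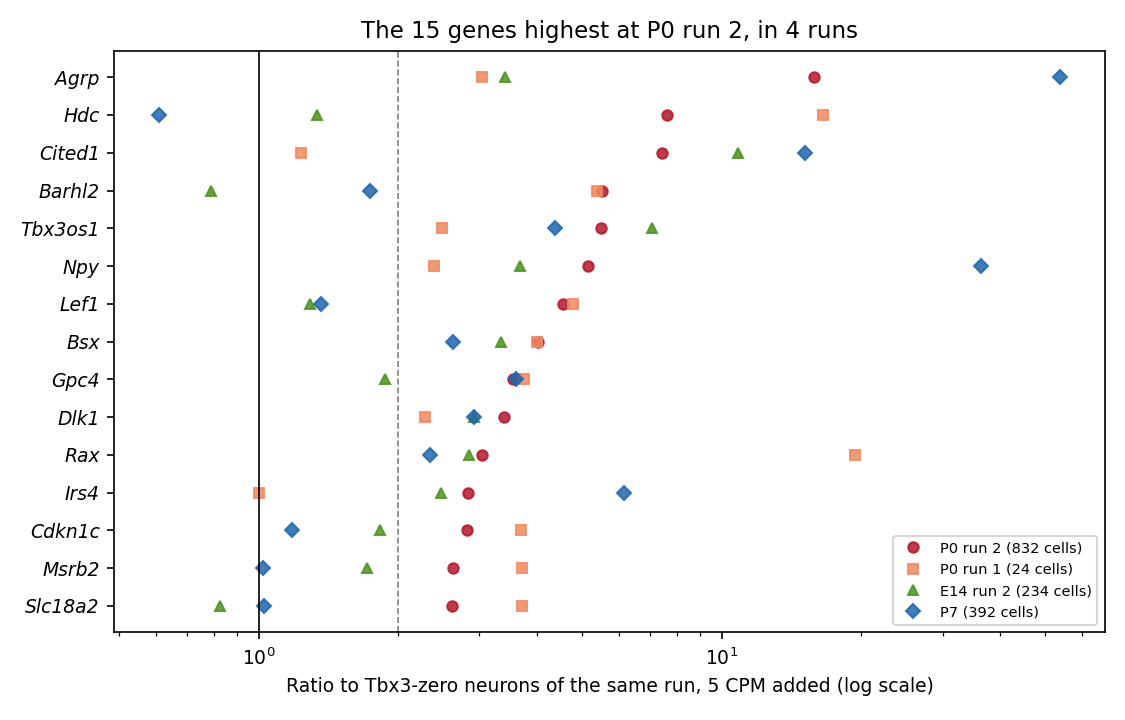
Ratio of the Tbx3 neurons to the Tbx3-zero neurons of the same run, with 5 CPM added, on a log axis, for the 15 genes highest at P0 run 2, in 4 runs. The solid line marks a ratio of 1 and the dashed line 2. Dlk1, Bsx and Rax lie beyond 2 in each of the 4, as do Agrp, Npy and Tbx3os1, while Hdc is at 7.64 in P0 run 2 and 0.611 at P7 (1.76 with at least 10 Stmn2 UMIs, not drawn).

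The genes differed in how they behaved from age to age. Agrp stood at 14.19 CPM in the Tbx3 neurons of E14 run 2, 129.5 CPM at P0 run 2 and 1591 CPM at P7, with ratios of 3.41, 15.8 and 53.7. Npy stood at 80.0, 251 and 5655 CPM, with ratios of 3.66, 5.15 and 36.3. Cited1 was high at each of these ages, at 566, 268 and 933 CPM with ratios of 10.9, 7.44 and 15.1, but at 53.5 CPM with a ratio of 1.23 in the 24 cells of P0 run 1. Dlk1 stood at 1418, 700.2 and 593 CPM, and its ratios of 2.93, 3.39 and 2.91 lay close together.

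Hdc, Barhl2, Lef1 and Slc18a2 had their higher ratios in the runs of P0. Hdc stood at 4.73 CPM in the E14 cells, 59.2 CPM at P0 run 2, 169 CPM in P0 run 1 and 23.9 CPM at P7, with ratios of 1.34, 7.64, 16.5 and 0.611. With at least 10 Stmn2 UMIs in both groups the P7 ratio was 1.76, at 25.3 against 12.2 CPM, and that of P0 run 2 was 9.36. Barhl2 had ratios of 0.788, 5.52, 5.39 and 1.74 in the same order, and Lef1 1.29, 4.55, 4.78 and 1.36. Slc18a2 had ratios of 0.825, 2.61, 3.71 and 1.03. These differences between ages were not tested, each age being 1 sample. At P7 the cells meeting the thresholds were deeper than their reference, with a median of 21151 against 15034.5 UMIs; what depth contributed was not tested.

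The part of the neurons with Tbx3 was then counted from the other side, among neurons defined by another transcript. At least 2 Tbx3 UMIs were found in 10.9% of all P0 run 2 neurons, with no ceiling on peptides. Among 36 neurons with at least 10 Pomc UMIs, 30 had Tbx3, or 83.3% (67.2 to 93.6%). Among 22 neurons with at least 10 Agrp UMIs, 17 did, or 77.3% (54.6 to 92.2%), and among 29 with at least 10 Hdc UMIs, 23 did, or 79.3% (60.3 to 92.0%). The intervals of these 3 overlapped. Tbx3 was found in 57.0% of 135 neurons with at least 10 Cited1 UMIs and in 40.0% (16.3 to 67.7%) of 15 with at least 10 Tac2 UMIs.

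In other sets of neurons Tbx3 was counted in few cells. Of 35 neurons with at least 10 UMIs of Ghrh, the growth hormone-releasing hormone gene, 0 had Tbx3 (interval 0 to 10.0%), although Ghrh neurons belong to the arcuate nucleus. Galanin neurons with at least 10 Gal UMIs had it in 1 of 84 cells (1.19%), and vasopressin neurons with at least 10 Avp UMIs in 1 of 85 (1.18%). Sst neurons with at least 10 UMIs had it in 6 of 117 (5.13%). Neurons with at least 2 UMIs of Th, the dopamine synthesis gene, had it in 4 of 167 (2.40%), and those with at least 2 UMIs of Foxb1 or Sim1, factors of the mammillary and paraventricular regions, in 2.91% and 2.97%. For these last genes the share lay below that of all neurons, and the median depth of the cells was at least 10746 UMIs.

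**Figure D3:**
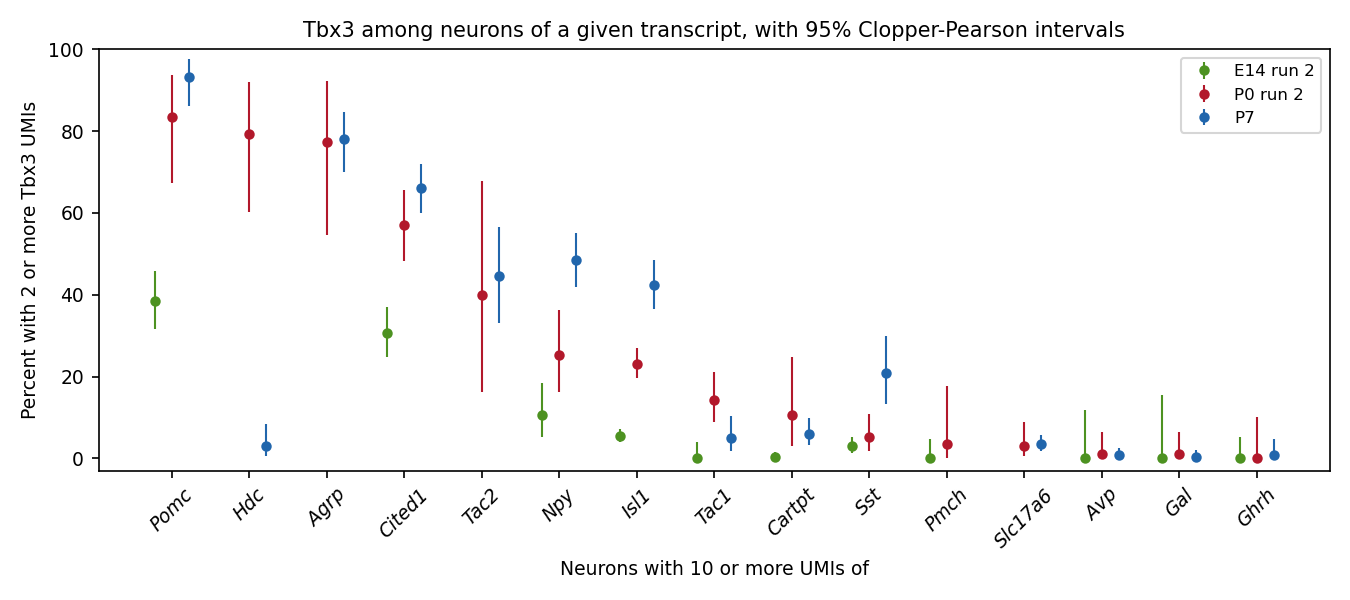
Percent of neurons with at least 2 Tbx3 UMIs, among neurons with at least 10 UMIs of the gene on the horizontal axis, at E14 run 2 (green), P0 run 2 (red) and P7 (blue), with 95% Clopper-Pearson intervals. No point is drawn where fewer than 5 such neurons were found. Pomc, Agrp and Cited1 stay high from P0 to P7, while Hdc goes from 79.3% to 2.94%, or from 81.5% to 21.4% among cells with at least 10 Stmn2 UMIs, which are not drawn.

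At P7 the same shares were 93.3% for Pomc (84 of 90), 78.0% for Agrp (103 of 132) and 66.2% for Cited1 (172 of 260), with 11.47% over all neurons. For Hdc the share at P7 was 2.94% (3 of 102), against 79.3% at P0 run 2. Each age was 1 sample, and the difference between ages was not tested. Only 14 of these 102 cells had at least 10 Stmn2 UMIs, and among those the share was 21.4% (3 of 14, 4.66 to 50.8%), against 81.5% (22 of 27, 61.9 to 93.7%) at P0 run 2. At E14 run 2, 38.5% of 192 neurons with at least 10 Pomc UMIs and 30.6% of 232 with at least 10 Cited1 UMIs had Tbx3, where the share over all neurons was 2.17%. In P0 run 1, 0 of 9 neurons with at least 10 Cited1 UMIs and 1 of 6 with at least 10 Agrp UMIs had it, in a run with a median of 6287 UMIs per neuron.

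Within the 832 cells, Agrp, Hdc, Rax and Tac2 marked sets with different genes. These sets were chosen after the levels had been seen and are described without a test. At least 2 UMIs were required. The Agrp, Hdc and Rax sets were compared with the 779, 764 and 635 Tbx3 neurons with 0 UMIs of the gene, leaving out 30, 22 and 91 cells with 1 UMI. Agrp gave 23 cells, Hdc 46, Rax 106 and Tac2 20. Agrp and Hdc shared 1 cell, and Rax and Tac2 shared 0 with each other and with the other sets, which was not compared with what the set sizes alone would give. The 658 cells without 2 UMIs of Agrp, Hdc or Rax made up 79.1% of the Tbx3 neurons.

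The Agrp cells, summed, held high levels of several transcripts of feeding-promoting neurons, though not each in every cell. Npy ran from 0 to 252 UMIs with a median of 74, a level of 5225 CPM against 29.3 CPM in the Tbx3 neurons with no Agrp UMI. Otp, a homeobox gene needed for Agrp neurons to form, had at least 2 UMIs in 22 of the 23 cells, at 381 against 39.6 CPM. By ratio, the next 3 genes after Npy were the Y2 receptor gene Npy2r at 89.0 against 1.96 CPM, the growth hormone receptor gene Ghr at 129 against 5.77 CPM and the calcitonin receptor gene Calcr at 205 against 12.5 CPM. Of the 23 cells, 19 had an Npy UMI, 14 an Npy2r UMI, 14 a Ghr UMI and 20 a Calcr UMI. Cited1 stood at 1500.1 CPM. Against the Tbx3 neurons with no Agrp UMI, 5% of 7617 tested genes were at least 2-fold higher and 6.56% lower, a comparison that rests on 23 cells with a median of 17534 UMIs. Among the lower genes were Nhlh2, at 2.47 against 98.0 CPM, and Dlx2, at 4.94 against 99.7 CPM.

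The Hdc cells carried genes of histamine handling. Slc18a2 had a median of 3 and a highest count of 36 UMIs, at 301 against 18.97 CPM in the Tbx3 neurons with no Hdc UMI, and Maoa, which encodes a monoamine-degrading enzyme, stood at 282 against 46.6 CPM. The orexin receptor gene Hcrtr2 stood at 100.4 against 6.52 CPM, and Tac1, the substance P gene, at 312 against 46.7 CPM. Barhl2 had at least 2 UMIs in 25 of the 46 cells and Bsx in 27. Other genes were lower in these cells: Dlk1 stood at 13.4 against 775 CPM, Cited1 at 12.04 against 296 CPM, Six3 at 16.1 against 221 CPM and Rax at 1.34 against 59.0 CPM. Stmn2 was high, with a median of 56 UMIs against 19 over the whole group. Of 7501 tested genes 2.47% were at least 2-fold higher and 4.71% lower.

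The Rax cells had the lowest Stmn2 counts of the 4 sets. Their median was 5.5 UMIs, against 34, 56 and 33.5 in the Agrp, Hdc and Tac2 cells, beside 19 over the whole group. By ratio to the 635 Tbx3 neurons with no Rax UMI, the 5 leading genes were Cyr61 at 258 against 8.21 CPM, Crym at 130.3 against 2.74 CPM, Klf2 at 321 against 17.1 CPM, Col25a1 at 193 against 10.5 CPM and Atf3 at 160.3 against 8.48 CPM. Cyr61, Klf2 and Atf3 are genes that cells induce quickly on stimulation or stress, and Crym and Col25a1 are tanycyte genes, as is Col23a1, the tenth by ratio, at 92.6 against 4.79 CPM. The part of stress in the set was not tested. These genes came from part of the set, with a Crym UMI in 28 of the 106 cells, a Col25a1 UMI in 36 and a Cyr61 UMI in 54. The glial and progenitor genes Vim, Sox9 and Hes1 stood at 1253, 405 and 165 CPM, and Cdkn1c at 1114 CPM. Of 7834 tested genes 7.49% were at least 2-fold higher than in the Tbx3 neurons with no Rax UMI and 3.15% lower. When cells with 2 or more Rax UMIs were left out of both groups, 14 of the 15 highest genes kept a 2-fold ratio to the Tbx3-zero neurons. Rax itself came to 1.70, a fall that follows from the limit.

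The Tac2 cells, with 3 UMIs of the neurokinin B gene as their median and 39 as the highest count, had Nhlh2, a helix-loop-helix factor, in each of the 20 cells at 541 CPM. Isl1 had a UMI in 1 of the 20 and Dlk1 in 4. In the 658 cells outside the Agrp, Hdc and Rax sets, Isl1 stood at 367 CPM, Cited1 at 254 CPM, Dlk1 at 686 CPM and Nkx2-1 at 218 CPM. A UMI of Nkx2-1 was found in 527 of these cells, of Dlk1 in 480, of Isl1 in 431 and of Cited1 in 355.

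**Figure D4:**
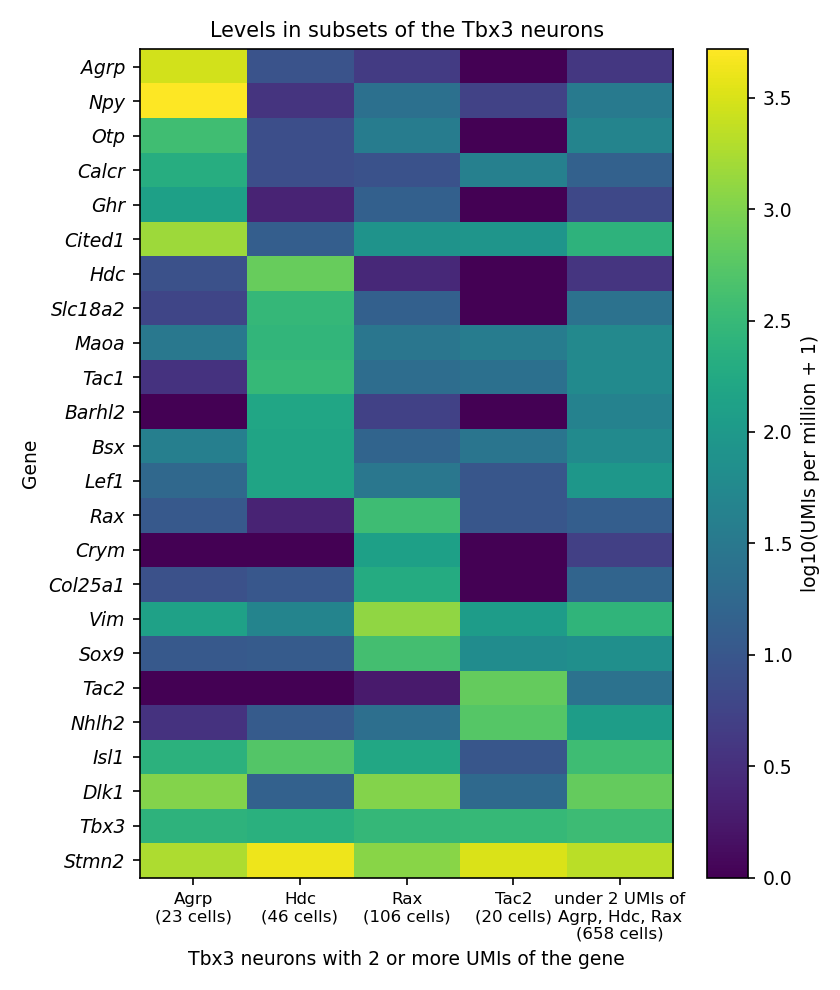
Level of 24 genes, as log10 of CPM plus 1, in Tbx3 neurons with at least 2 UMIs of Agrp, Hdc, Rax or Tac2 and in those with fewer than 2 UMIs of each of Agrp, Hdc and Rax. Npy and Otp are brightest in the 23 Agrp cells, Slc18a2, Maoa and Tac1 in the 46 Hdc cells, Crym, Col25a1 and Vim in the 106 Rax cells, and Nhlh2 in the 20 Tac2 cells.

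The neuropeptide list gave 13 genes with at least 20 CPM in either group, leaving out Pomc, Ghrh and Sst, which the rule used. Agrp, Npy and Cartpt were at least 1.5-fold higher, and 8 were at 0.67 or less (Gal, Trh, Nts, Avp, Oxt, Pmch, Cck and Nxph4). Few cells of the reference held 2 or more UMIs of Pmch, Oxt, Trh or Nts: 1.21%, 1.10%, 1.79% and 2.31%. The median ratio was 0.358, beside 1.02 over all tested genes, of which 1.62% were at least 1.5-fold higher and 5.94% at 0.67 or less. Cartpt stood at 33.4 against 19.3 CPM with a ratio of 1.58, which was below 1.5 with Tbx3 at 1 UMI or more, with at least 5 or 10 Stmn2 UMIs and with 20 CPM added. Its ratio was 0.198 at E14 and 0.454 at P7. Gal stood at 8.15 against 43.5 CPM and Cck at 24.9 against 78.3 CPM, and Gal and Cck were at 0.0840 and 0.0827 of the reference at P7. The 30 neurons left out for Pomc had Isl1 at 359 CPM, Asb4 at 366 CPM and Agrp at 6.90 CPM.

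Among the transmitter genes, Hdc and Slc18a2 were at least 1.5-fold higher, as given above. Slc17a6, the vesicular glutamate transporter, stood at 31.1 CPM (27.7 to 34.9) against 91.4 CPM, a ratio of 0.374, with a UMI in 20.3% of the Tbx3 neurons and 32.5% of the Tbx3-zero neurons. With each cell thinned to 2000 UMIs the shares were 5.65% (4.18 to 7.44%) and 12.1% (11.3 to 12.9%), and in oligodendrocyte precursor cells 0.971%. Its ratio was 0.351 at E14 and 0.404 at P7. UMIs of Slc32a1, Gad1 or Gad2, the genes for GABA synthesis and loading, were found in 59.3% of the Tbx3 neurons and 51.3% of the Tbx3-zero neurons, but in 25.5% and 28.1% after thinning, and their levels of 41.8, 63.8 and 65.1 CPM lay below 54.2, 75.9 and 94.4 CPM, so no order was read from the shares. By raw UMIs, 50% of the Tbx3 neurons had a GABA gene and no Slc17a6, 11.06% Slc17a6 and no GABA gene, 9.25% both and 29.7% neither.

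Inside the group, 296 cells with at least 2 GABA UMIs and no Slc17a6 were set against 35 with at least 2 Slc17a6 UMIs and no GABA gene. Of 7506 tested genes 1.21% were at least 2-fold higher in the GABA cells and 2.34% lower. Npy stood at 536 against 8.49 CPM and Agrp at 308 against 4.25 CPM. These levels came from a small part of the GABA cells, with an Npy UMI in 37 of the 296 and an Agrp UMI in 29. At least 2 Agrp UMIs were found in 18 of the 296, and whether the 35 Slc17a6 cells differed in this was not tested. Dlx2, Dlx5 and Dlx6, homeobox genes of GABA neurons, stood at 140.0, 89.4 and 82.1 CPM against 8.49 CPM each. Nhlh2 went the other way at 16.6 against 261 CPM, and Uncx stood at 1.63 against 53.1 CPM.

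Among arcuate transcription factors 20 were measured, leaving out Tbx3, which the rule used. Of these, 8 were at least 1.5-fold higher (Nkx2-1, Isl1, Dlx2, Dlx5, Dlx6, Rax, Bsx and Insm1) and 4 were at 0.67 or less (Prox1, Foxp2, Nfib and Nfix), beside 1.62% and 5.94% of all tested genes. The median ratio was 1.06. Of the 8, 5 kept their call with 20 CPM added, with at least 10 Stmn2 UMIs and without cells holding 10 or more non-neuronal marker UMIs, where Nkx2-1, Dlx2 and Insm1 lost it. Of the 4 low genes, 1 kept its call with Tbx3 at 1 UMI or more (Foxp2) and 2 with at least 5 Stmn2 UMIs, and Nfib lost it under 5 alternatives. Isl1, a LIM homeobox gene of arcuate neurons, stood at 350.3 against 137 CPM, a ratio of 2.50, and ran from 0 to 35 UMIs with a median of 2. Its ratios in P0 run 1, E14 and P7 were 3.32, 1.93 and 3.41. Nkx2-1, which patterns the ventral hypothalamus, stood at 201 against 132 CPM, a ratio of 1.51 that was below 1.5 under 9 of 15 alternatives and was 0.814 at P7. Dlx5 and Dlx6 had ratios of 1.82 and 1.83 at P0 run 2 and of 0.799 and 0.811 at E14. Six3 stood at 201 against 202 CPM and did not differ by the fold used. Nfib and Nfix, which glia also use, had ratios of 0.662 and 0.584.

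Of 17 measured transcription factors of other hypothalamic regions, 13 were at 0.67 or less and 2 were at least 1.5-fold higher (Barhl2 and Lhx2), with a median ratio of 0.340, beside 5.94% and 1.62% of all tested genes. Lhx2 came to 1.09 without cells holding 3 or more non-neuronal marker UMIs, and 12 or 13 of the 13 low genes kept their call under each alternative. Lhx1, of the suprachiasmatic and mammillary regions, stood at 25.7 against 110.1 CPM, a ratio of 0.267. Foxb1, a mammillary gene, stood at 18.8 against 77.5 CPM, a ratio of 0.289, Sim1, of the paraventricular nucleus, at 9.00 against 37.9 CPM, a ratio of 0.327, and Zic1 at 33.0 against 139 CPM, a ratio of 0.263. At E14, 13 of 16 genes of this list were at 0.67 or less, beside 3.36% of all tested genes, and at P7 9 of 10, beside 10.1%. In P0 run 1 13 of 20 were at 0.67 or less, beside 15.4%, and 2 were at least 1.5-fold higher, beside 22.9%, while at E14 and P7 0 genes of the list were at least 1.5-fold higher.

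The list of hormone and metabolic receptors also holds genes that are not receptors, among them Irs4 and Asb4. It gave 10 measured genes, with 2 at least 1.5-fold higher and 0 at 0.67 or less, beside 1.62% and 5.94% of all tested genes. The 2 were Irs4, with a ratio of 2.84, and Asb4, which encodes a ubiquitin ligase subunit of hypothalamic neurons, at 170.3 against 65.1 CPM with a ratio of 2.50. Neither encodes a receptor, so no receptor gene measured at P0 run 2 was at least 1.5-fold higher. At P7 7 of 15 were at least 1.5-fold higher, beside 2.23% of all tested genes, and 2 were at 0.67 or less, beside 10.1%. There Irs4 stood at 284 against 42.0 CPM, a ratio of 6.15. Insr and Igf1r, the insulin and growth factor receptors, had ratios of 1.09 and 0.978 at P0 run 2. Esr1, the estrogen receptor gene, lay below the minimum level at 11.11 against 3.53 CPM and had a UMI in 7.09% (5.44 to 9.05%) of the Tbx3 neurons and 2.69% of the Tbx3-zero neurons.

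Imprinted genes, which are expressed from 1 parental copy and act widely in growth and feeding, shared a higher level in a minority of the list. Of 39 measured, 9 were at least 1.5-fold higher and 2 at 0.67 or less, with a median ratio of 1.06, beside 1.62% and 5.94% of all tested genes. The 9 were Dlk1, Cdkn1c, Asb4, Peg10, Plagl1, Zim1, Peg3, Zdbf2 and Magel2. Peg3, a zinc-finger gene that lies next to Zim1 on chromosome 7, was found in 99.2% of the Tbx3 neurons with a median of 13 UMIs, at 1398 CPM (1374 to 1422) against 768 CPM, a ratio of 1.81. Peg10, derived from a retrotransposon, stood at 278 against 114 CPM, a ratio of 2.38. Plagl1 had a ratio of 1.97, Zdbf2 of 1.79 and Magel2 of 1.57. Magel2 was below 1.5 under 6 of the alternatives, and Zim1 with at least 10 Stmn2 UMIs. Nap1l5 and Inpp5f, with ratios of 0.651 and 0.642, were the low ones, and Nap1l5 was above 0.67 under 4 of the alternatives.

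Neighbouring imprinted genes did not all behave alike, and pairs were not tallied. Zim1 and Peg3 were both at least 1.5-fold higher, as given above, while other pairs differed. Peg3 and Usp29 are neighbours, at chromosome 7, 6703892 to 6730462 and 6730559 to 6967220, and Usp29 had a ratio of 1.28. Dlk1 and Meg3 lie side by side on chromosome 12, where Dlk1 had a ratio of 3.39 and Meg3 of 0.889, at 6198 against 6977 CPM. At E14 10 of 40 were at least 1.5-fold higher, beside 2.94% of all tested genes, and at P7 9 of 41, beside 2.23%, with 2 at 0.67 or less at each age. In P0 run 1, with 24 cells, 10 of 35 were at least 1.5-fold higher and 8 at 0.67 or less, with a median ratio of 1.01, beside 22.9% and 15.4% of all tested genes. Peg10 had ratios of 2.66 and 2.08 at E14 and P7 and Plagl1 of 1.74 and 2.08, but Cdkn1c came to 1.83 and 1.18.

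**Figure D5:**
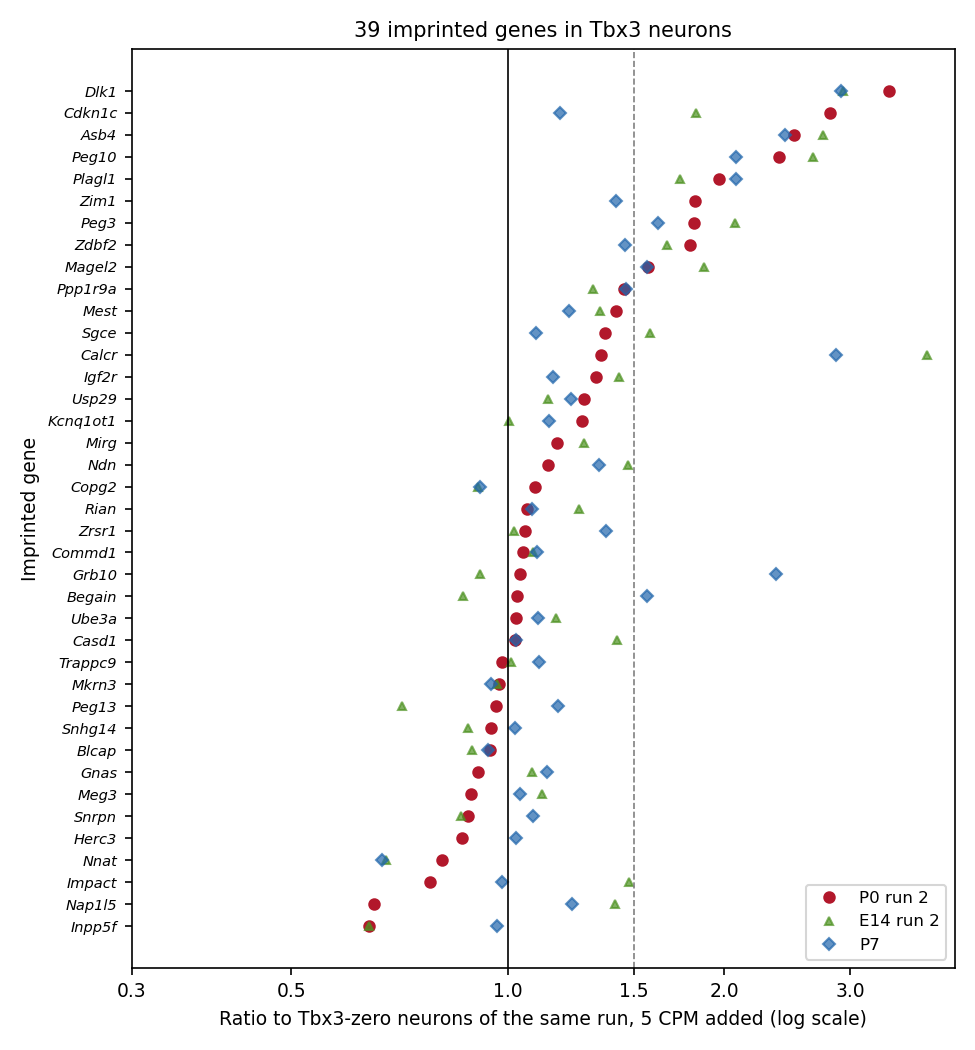
Ratio of the Tbx3 neurons to the Tbx3-zero neurons of the same run, with 5 CPM added, on a log axis, for 39 imprinted genes at P0 run 2 (red circles), E14 run 2 (green triangles) and P7 (blue diamonds, points drawn from 20 CPM). The solid line marks 1 and the dashed line 1.5. At P0 run 2 the 9 genes right of the dashed line run from Magel2 at 1.57 to Dlk1 at 3.39.

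Of 57 measured guidance and adhesion genes, 3 were at least 1.5-fold higher and 11 at 0.67 or less, with a median ratio of 0.902, beside 1.62% and 5.94% of all tested genes. Efna5, a ligand that repels growing axons, stood at 229.98 against 103 CPM, a ratio of 2.17, and had ratios of 2.75 in P0 run 1, 2.01 at E14 and 2.26 at P7. Unc5d had 2.18, 1.36 and 3.79 in the same runs, and Flrt3, which encodes a ligand of the Unc5 receptors, had 1.55 at P0 run 2, which was below 1.5 under 5 of the alternatives. Among the low genes Nrp1, a semaphorin receptor, had a ratio of 0.565, and Tenm2 and Cdh4 had 0.563 and 0.537. With 20 CPM added 7 of the 11 kept their call, as did 7, without Nrp1, with Tbx3 at 1 UMI or more. Of 33 measured maturation genes, Syt1 and Gabra2 were at least 1.5-fold higher (1.53, below 1.5 under 5 alternatives, and 1.94) and 5 were at 0.67 or less, beside the same shares, among them the neurofilament gene Nefl at 59.3 against 149.7 CPM. With 20 CPM added 2 of the 5 kept their call.

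The 15 highest genes had the same direction in cells of either sex, and so did the 15 lowest but for Hbb-bs, which had ratios of 0.0496 in Xist cells and 1.09 in Y-linked cells. In the Tbx3-zero neurons it stood at 152 CPM in Xist cells and 4.35 CPM in Y-linked cells. Its level rested on few cells, as given above, and no difference between the sexes was read from it. By UMIs of Xist and of Y-linked genes, 236 Tbx3 neurons had Xist alone and 415 a Y-linked gene alone. Within the former 15 of the 15 highest genes were at least 2-fold higher and 15 of the 15 lowest at least 2-fold lower, and within the latter 15 and 14. These genes were ranked on the same cells with the sexes pooled. Agreement within each sex therefore follows in large part from the ranking and is a description only. Hdc cells with 2 or more UMIs were 8 of the Xist cells (3.39%) and 22 of the Y-linked cells (5.30%). They were 8 of the 75 cells with both (10.7%) and 8 of the 106 with neither (7.55%), and the part of doublets in this was not tested.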

How the data were processed

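Single-cell 3-prime RNA libraries (10x Genomics, version 3 chemistry) were made from sorted tdTomato-positive hypothalamic cells of 4 samples, per the labels. The authors deposited 1 table of UMI counts, 28879 genes by 43261 cells, in which 0 values were negative or not whole and no normalization showed. Cell Ranger 3.0.2, Seurat and mm10 are named in the submitters' processing notes without their roles, and neither the gene annotation nor the cell filter is given in the sources used here. Cells in the table had 2001 to 7998 genes and at most 5.00% mitochondrial UMIs. In P0 run 1 0 cells lacked a tdTomato UMI, against 353 in P0 run 2.

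Cells were assigned to runs by the start of their names. UMIs were summed over the cells of a group and divided by their total (CPM), and ratios were taken after adding 5 CPM, and counted for genes with at least 20 CPM in either group; ratios printed for single genes in other runs include some below it. Named were the genes of the rule, the given markers, the 15 highest and 15 lowest ratios (without the rule genes, mitochondrial, sex-linked and unnamed genes), list genes past 1.5 or 0.67, and 8 in each direction between GABA and glutamate cells. Genes named within the Agrp, Hdc, Rax and Tac2 sets and in the count of Tbx3 among other neurons were chosen after their values were seen. Galp, Brn3a, Lphn3 and Snurf are list symbols without a row in the table used here. For thinning, 2000 UMIs were drawn from each cell without replacement, and 0 cells were shallower. Positions and promoters came from RefSeq (GRCm38.p6). The ratio code was tested on simulated counts. The members and lists were chosen with earlier results of these data known. Computations used Python 3.11.15, numpy 2.4.6, scipy 1.17.1, pandas 2.3.3 and matplotlib 3.10.9. The alternatives are given in the closing section. No doublet caller was run, and cells above the 95th percentile of depth or with markers of other types were left out as alternatives. The marker exclusion at 10 UMIs, the exclusion of Rax cells and the limit of 10 Stmn2 UMIs were chosen after seeing the data. The low side of the transmitter list is not reported here in full.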

Additional observations from a re-analysis of the deposited data

Results flagged for a closer look

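Hdc differed between ages. Among cells meeting the thresholds its ratio to the Tbx3-zero neurons of the same run was 7.64 at P0 run 2 and 0.611 at P7, where it stood at 23.9 against 42.3 CPM, with 5 CPM added. The 2 ratios lie on opposite sides of 1 at 1 sample each, and the difference was not tested. With at least 10 Stmn2 UMIs in both groups they were 9.36 and 1.76, on the same side of 1.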

How the results depend on the processing

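The 2-fold counts moved with several settings. The 35 higher genes became 60 without cells holding 3 or more UMIs of non-neuronal markers (123 Tbx3 neurons left), 20 with 20 CPM added, 23 at a minimum of 50 CPM and 56 with no minimum. The 174 lower genes became 75 with Tbx3 at 1 UMI or more (1369 cells), 109 with at least 5 Stmn2 UMIs, 109 with at least 10, 75 with 20 CPM added and 83 at 50 CPM. The GABA share of 25.5% became 39.1% at 4000 UMIs, 59.3% unthinned and 6.61% with 2 UMIs required; the Slc17a6 share of 5.65% became 8.29%, 20.3% and 0.601%, and 8.94% without cells with 3 or more marker UMIs. Of 1410 recomputed ratios (94 genes, 15 alternatives), 894 stayed within the counting interval, 505 moved in the same direction and 11 crossed 1. Pmch came to 1.27 with 1 Tbx3 UMI. Hbb-bs came to 1.01 and 1.07 with at least 5 and 10 Stmn2 UMIs, and 1.05 without cells with 10 or more marker UMIs, where Ednrb came to 1.04, Apoe 1.20, Fabp7 1.02 and Slc4a4 1.11. Without cells with 3 or more, Apoe came to 1.40, Fabp7 1.08 and Slc4a4 1.01. Fabp7, Hbb-bs, Olig1 and Olig2 are themselves in the marker lists, so their moves under these exclusions follow at least in part from the exclusion. The Hdc ratio at P7 of 0.611 came to 1.76 with at least 10 Stmn2 UMIs. The cause was not tested. Of the 15 highest genes, 13 to 15 stayed 2-fold higher under each alternative; of the 15 lowest, 6 stayed 2-fold lower under the Stmn2 limits and both marker exclusions, and 14 or 15 under the others. No paired analysis was possible because each age had 1 sample and the comparisons were between cells of the same run. Depth limits shares of low genes.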

Other observations

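The Tbx3 cells of P0 run 2 that missed the Stmn2 threshold were 76, with a median of 7766.5 UMIs. They held Rax at 397 CPM, Dlk1 at 1568 CPM, Cdkn1c at 1462 CPM and Plagl1 at 268 CPM, against 54.1, 700.2, 525 and 90.4 CPM in the Tbx3 neurons, while Isl1 stood at 97.9 against 350.3 CPM. Their tanycyte list summed to 1135 CPM and their radial glia list to 6380 CPM. Nkx2-1 lay close in both, at 214 and 201 CPM.

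The Tbx3 neurons left out for their peptides were few. The 30 with over 9 Pomc UMIs had Stmn2 at 3025 CPM, Peg10 at 423 CPM and Nhlh2 at 212 CPM, with Otp, Hdc and Barhl2 at 0 UMIs. The 6 with over 9 Sst UMIs had Npy at 532 CPM, Otp at 225 CPM and Hdc at 217 CPM. The Hdc UMIs came from 1 of these 6 cells.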
